A study of Homo sapiens with 18 samples.

Results

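The 34 genes described here belong to the unfolded protein response and the integrated stress response, and were taken by symbol from the 56609 gene symbols of the count table. All 34 were found, and all 34 passed the filter of at least 10 counts over the 18 libraries, as did 31872 symbols in all. The endoplasmic reticulum (ER) folds secreted and membrane proteins, and unfolded protein in its lumen is sensed by ERN1 (IRE1), EIF2AK3 (PERK) and ATF6. ERN1 splices the XBP1 mRNA and ATF6 is cleaved to a transcription factor, and together they raise chaperones and degradation factors, whereas EIF2AK3 phosphorylates the translation factor eIF2α, as other kinases do when amino acids are short or viral RNA is present, and thereby favours translation of ATF4. B cells expand their ER through this response when they become antibody-secreting plasma cells. By role, the genes were 12 ER chaperones and folding enzymes, 3 stress sensors, 7 factors of ER-associated degradation, 3 factors of translocation and export, and ATF4 with 8 of its targets.

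HG3, MEC2 and PCL12 are EBV-positive cell lines derived from chronic lymphocytic leukemia (CLL), with mutated IGHV genes in MEC2 and unmutated ones in HG3 and PCL12, and each kind is represented by so few lines that a difference between lines cannot be read as one between kinds of CLL. Each line gave 3 samples stimulated for 4 h with 2.5 μg/ml of ODN-2006, a CpG oligonucleotide that activates the endosomal DNA receptor TLR9, and 3 unstimulated samples. The totals ran from 20382943 to 67308932 counts per library, and levels are given as CPM, the counts per 1000000 after scaling of the library totals by TMM factors. The B cell markers MS4A1 (589 to 1840 CPM), CD79A (215 to 996 CPM) and CD22 (297 to 872 CPM) were present in all libraries, and the 7 plasma cell genes examined were present too, XBP1 among them with a mean over all libraries of a line of 163, 145 and 315 CPM for HG3, MEC2 and PCL12. The 4 monocyte markers summed to 0.428 to 1.91 CPM and the 4 NK cell markers to 1.05 to 10.8 CPM, and of the T cell markers CD3D was at 0 in 17 libraries and CD3G in 15, while TRAC stood at 35.7 to 140 CPM. Some libraries stood apart from the rest. Mitochondrial genes took 20.2% of the counts in HG3 unstimulated replicate 2 and 19.7% in MEC2 CpG-stimulated replicate 2, against 2.82% to 9.28% elsewhere. In PCL12, replicates 2 and 3 stood apart from replicate 1 in genes of MEC2. A set of 45 MEC2 genes, selected for low levels in PCL12 replicate 1 (medians of 2.26% and 2.36% of the level in MEC2), had medians of 29.0% to 31.3% in these 4 libraries, of which the selection by replicate 1 fixes a part. The source of this difference was not tested. The calls below are given with and without these libraries where that changes them.

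RefSeq promoters (250 bases before to 50 after the start, GRCh38.p14) were in the table used for 30 of the 34 genes (41 promoters, with PDIA3, DERL1, DERL3 and SEC24D missing), and the 250 bases before the start were searched on both strands for 2 elements. The ER stress response element, CCAAT then 9 bases then CCACG, was found in promoters of HSPA5, CALR, CANX, PDIA6 and CRELD2, which are 5 of the 11 ER chaperone and folding genes with an entry and none of the other roles, and in 26 of all 35116 promoters (0.074%). The ATF4 element, TGATGNAA, was found for ASNS, CHAC1 and HERPUD1, and in 1104 of the 35116 promoters (3.14%). The stretches around the elements are shown for the 4 genes with an element and a nominal P under 0.05 in a comparison of unstimulated lines below. They are written 5′ to 3′ along the gene's strand, and the capitals mark the element, or its complement where it lies on the other strand.
PDIA6, chr2:10812823-10812901, minus strand, 86 to 68 bases before the start: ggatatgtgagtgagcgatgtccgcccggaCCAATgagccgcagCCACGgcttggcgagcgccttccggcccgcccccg
CRELD2, chr22:49918524-49918602, plus strand, complement, 80 to 62 bases before the start: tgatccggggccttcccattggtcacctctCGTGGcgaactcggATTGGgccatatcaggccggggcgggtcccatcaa
ASNS, chr7:97872439-97872506, minus strand, 68 to 61 bases before the start: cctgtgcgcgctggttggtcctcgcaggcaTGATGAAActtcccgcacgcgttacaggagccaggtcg
HERPUD1, chr16:56931936-56932003, plus strand, complement, 176 to 169 bases before the start: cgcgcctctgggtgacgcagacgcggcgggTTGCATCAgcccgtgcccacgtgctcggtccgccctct
These matches describe letters of the reference genome and are not measured binding sites.

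In unstimulated cells, the cell lines differed most in PHGDH, the enzyme of the first step of serine synthesis, which was low in HG3. The unstimulated mean level was lowest in HG3 for 21 of the 34 genes, in MEC2 for 12 and in PCL12 for 1, and it was highest in PCL12 for 16. With edgeR's quasi-likelihood test and Benjamini-Hochberg adjustment over all 31872 genes, 3 of 34 genes passed an adjusted p of 0.05 between MEC2 and HG3 (PDIA3 and PHGDH higher and DERL2 lower in MEC2), where 9.78% of all genes did, and 9 had a nominal P under 0.05 (21.7% of all genes). Between PCL12 and HG3, 3 of 34 passed (PDIA6, PSAT1 and PHGDH, all higher in PCL12), where 9.44% of all genes did, and 9 had a nominal P under 0.05 (21.8%). Between PCL12 and MEC2 none of the 34 passed, with 2.05% of all genes past the threshold, although 5 genes had a nominal P under 0.05 (11% of all genes) and 3 passed with DESeq2 and 0 with limma-voom. As shares of the 34 genes, edgeR's counts at the adjusted threshold were no larger than those shares of all genes, nor than the shares of the 9306 genes with mean levels of 10 CPM or more (16.2%, 14.6% and 3.79%). The median log2 difference of the 34 genes was 0.23 between MEC2 and HG3, 0.47 between PCL12 and HG3 and 0.21 between PCL12 and MEC2, against 0 over all tested genes in each comparison. Without the 2 libraries of high mitochondrial share, these medians were 0.04, 0.20 and 0.21. They moved the other way without HG3 unstimulated replicate 1 (0.52 and 0.82 for MEC2 and PCL12 against HG3), and without PCL12 replicates 2 and 3 the median between PCL12 and MEC2 was 0.37.

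**Figure D1:**
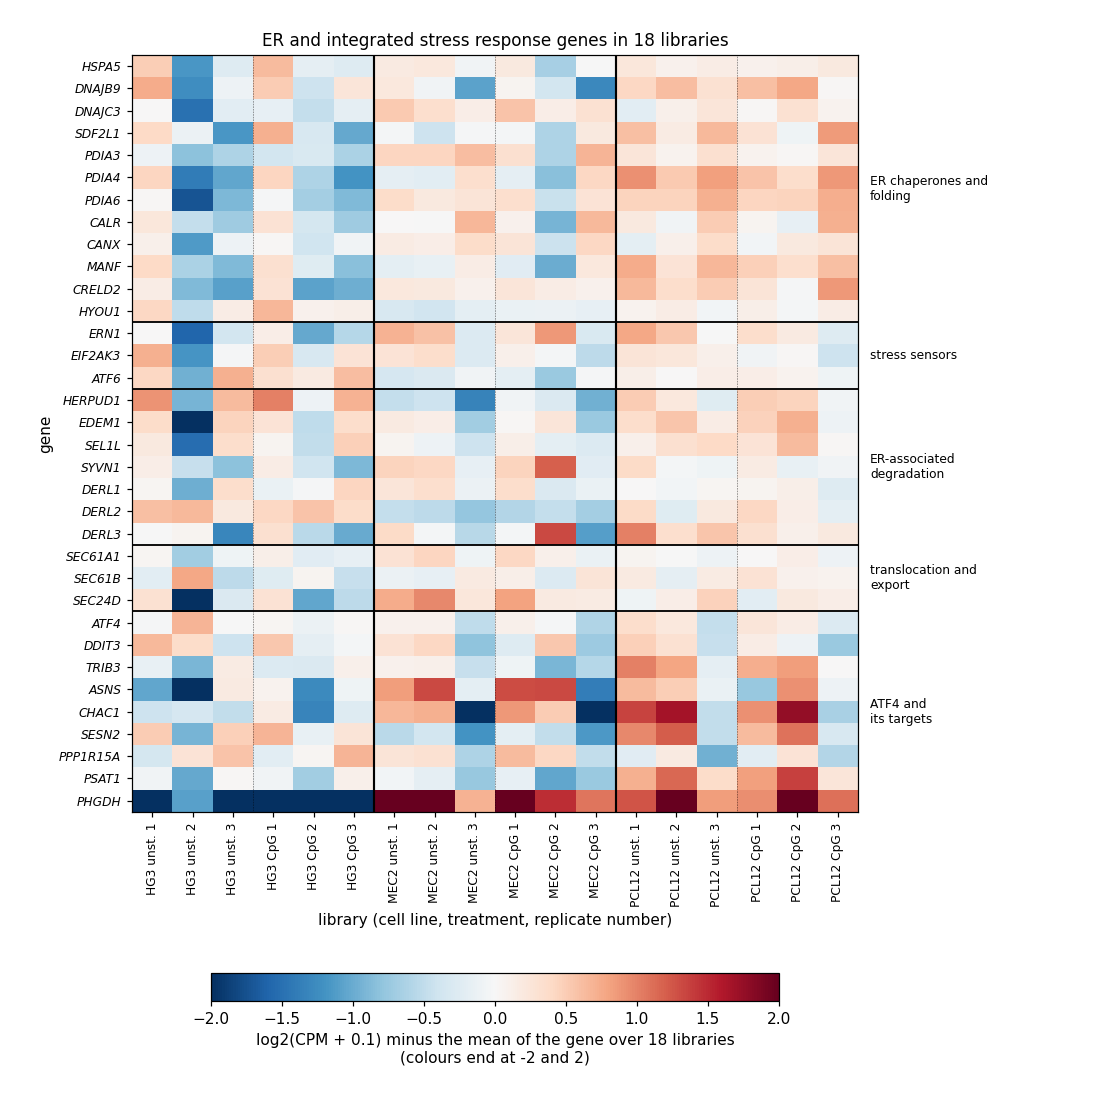
Level of each of the 34 genes in the 18 libraries, as log2(CPM + 0.1) minus the mean of the gene over all libraries (colour), with genes grouped by role in rows and libraries by cell line, treatment and replicate in columns. The PHGDH row separates HG3 from the other lines and the column of HG3 unstimulated replicate 2 is low for most genes.

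Among the stress sensors, ERN1 had its lowest unstimulated mean in HG3, without passing the adjusted test. It stood at 41.9, 13.8 and 32.5 CPM in the unstimulated HG3 libraries (replicates 1, 2 and 3), at 67.9, 62.7 and 34.6 CPM in MEC2 and at 71.6, 60.5 and 41.6 CPM in PCL12. The HG3 value of 13.8 CPM was that of the library with 20.2% of mitochondrial counts. The third MEC2 and PCL12 libraries overlapped the HG3 range, and the differences from HG3 did not pass the adjusted test (log2 difference 0.90, adjusted p = 0.153 for MEC2 and 0.97, adjusted p = 0.117 for PCL12, nominal P of 0.0246 and 0.0161). EIF2AK3 and ATF6 gave differences between any of the lines of -0.45 to 0.31 on the log2 scale, with no nominal P under 0.05. ATF6 stood at 84.6, 32.3 and 104 CPM in HG3 against 50, 51.8 and 60.4 CPM in MEC2, and without the libraries of high mitochondrial share, which include the HG3 library at 32.3 CPM, it was lower in MEC2 (log2 difference -0.81, adjusted p = 0.00594).

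Among the ER chaperones and folding enzymes, the protein disulfide isomerase PDIA3 was higher in MEC2 and PDIA6 was higher in PCL12 than in HG3, and the other 10 genes did not pass in edgeR's fit of all libraries. PDIA3 (ERp57), which works on glycoproteins bound to calreticulin and calnexin, stood at 368, 225 and 259 CPM in HG3, at 535, 530 and 606 CPM in MEC2 and at 466, 415 and 495 CPM in PCL12. All MEC2 and PCL12 libraries lay above all HG3 libraries. The MEC2 difference was 1.96-fold (log2 difference 0.97, SE 0.268, adjusted p = 0.0178), and the PCL12 difference was 1.62-fold and did not pass (adjusted p = 0.114). In the fit of only the libraries compared the MEC2 difference did not pass. Without PCL12 replicates 2 and 3, which enter this comparison through the shared estimate of the spread, the MEC2 difference of PDIA3 stood at 0.97 with an adjusted p of 0.0511, and it also missed the threshold without HG3 replicate 2, HG3 replicate 3 or MEC2 replicate 3 (adjusted p = 0.0619, 0.0666 and 0.0644). PDIA6, another disulfide isomerase, stood at 294, 87.4 and 156 CPM in HG3, at 375, 332 and 345 CPM in MEC2 and at 393, 395 and 475 CPM in PCL12. Here too HG3 was below both other lines in all libraries. The PCL12 difference was 2.35-fold (log2 difference 1.23, SE 0.32, adjusted p = 0.012), and the MEC2 difference was 1.96-fold with an adjusted p of 0.0533. This MEC2 difference passed with DESeq2, limma-voom, RLE factors, library totals without mitochondrial genes, the replicate block or no count filter. It did not pass with filterByExpr, with only the libraries compared or without the libraries of high mitochondrial share. Without HG3 replicate 3 the PCL12 difference had an adjusted p of 0.0546, and it did not pass in the fit of only the libraries compared. PDIA4 gave 2.29-fold and CRELD2, an ER protein induced by ER stress, 2.01-fold in PCL12 over HG3, with adjusted p values of 0.0977 and 0.0527. Both passed with DESeq2, limma-voom, the replicate block or no count filter. Neither passed with RLE factors, filterByExpr, only the libraries compared or without the libraries of high mitochondrial share. The other genes of this role with a nominal P under 0.05 were DNAJC3 in MEC2 (log2 difference 0.78, adjusted p = 0.0826) and MANF in PCL12 (0.83, adjusted p = 0.119). In the annotation (GENCODE 44, GRCh38), PDIA3 lies at chr15:43746394-43773279 on the plus strand and overlaps ELL3 on the other strand, and PDIA6 lies at chr2:10783391-10837977 on the minus strand and overlaps ATP6V1C2 on the other strand. The lectin chaperones, which hold glycoproteins during folding, were fitted higher in both lines without passing. Calreticulin (CALR) had unstimulated means of 655 ± 231, 940 ± 269 and 923 ± 188 CPM (SD, n = 3) in HG3, MEC2 and PCL12, and calnexin (CANX) of 609 ± 241, 867 ± 76.9 and 797 ± 155 CPM. SDF2L1, a partner of the co-chaperones of HSPA5, stood at 35.4 ± 17.3, 35.6 ± 5.18 and 55.2 ± 9.8 CPM.

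HSPA5 (BiP), the main chaperone of the ER lumen, did not separate the lines. Its unstimulated level was 1210, 385 and 722 CPM in HG3, 980, 994 and 818 CPM in MEC2 and 1010, 916 and 952 CPM in PCL12. The HG3 libraries spanned the range of the other lines, and the log2 differences from HG3 were 0.27 (adjusted p = 0.675) for MEC2 and 0.31 (adjusted p = 0.605) for PCL12. Without the libraries of high mitochondrial share, which include the HG3 library at 385 CPM, both differences turned to the other sign (-0.0568 and -0.0106). HYOU1, which serves HSPA5 as nucleotide exchange factor, was with DNAJB9 the exception to the higher fitted chaperones of MEC2, at 786, 417 and 653 CPM in HG3 against 473, 453 and 517 CPM in MEC2 (log2 difference -0.36, adjusted p = 0.38), and was the exception in PCL12 too (-0.01). Without the libraries of high mitochondrial share HYOU1 was lower in MEC2 (log2 difference -0.58, adjusted p = 0.0454).

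Among the factors of ER-associated degradation, which returns misfolded proteins to the cytosol, DERL2 was lower in MEC2. DERL2, a membrane protein of the derlin family, stood at 58.4, 60.3 and 44 CPM in HG3, at 27.5, 26.5 and 22.4 CPM in MEC2 and at 50.1, 32.5 and 43.8 CPM in PCL12. All MEC2 libraries lay below all others. The level in MEC2 was 0.469 times that in HG3 (log2 difference -1.09, SE 0.241, adjusted p = 0.00293), a call kept whichever library was left out, and PCL12 was 1.66-fold above MEC2 with a nominal P of 0.00546 (adjusted p = 0.151). DERL2 lies at chr17:5471254-5486811 on the minus strand and overlaps MIS12 on the plus strand. HERPUD1, a membrane protein of the degradation complex, stood at 394, 111 and 327 CPM in HG3, at 152, 159 and 84.1 CPM in MEC2 and at 302, 245 and 178 CPM in PCL12. The HG3 library at 111 CPM, replicate 2, lay within the MEC2 range, and the log2 difference of MEC2 from HG3 was -1.07 (adjusted p = 0.0793). Without the libraries of high mitochondrial share it was -1.45 (adjusted p = 0.0127). The other 5 genes of this role (EDEM1, SEL1L, SYVN1, DERL1 and DERL3) and the 3 of translocation and export had no adjusted p under 0.05 between the lines in edgeR's fit of all libraries. SEL1L and SYVN1 (HRD1), which form the ubiquitin ligase of this pathway, had unstimulated means of 157 ± 85.5, 154 ± 24.5 and 206 ± 20.9 CPM and of 174 ± 59.2, 262 ± 57.7 and 234 ± 44.5 CPM in HG3, MEC2 and PCL12 (SD, n = 3). SEC61A1 and SEC61B, subunits of the channel through which nascent proteins enter the ER, differed by -0.25 to 0.44 on the log2 scale between lines. SEC61B was at 108, 215 and 87.4 CPM in HG3, and the value of 215 CPM was that of the library with 20.2% of mitochondrial counts, in which most of the other genes were low. SEC24D, a COPII coat subunit, had the largest difference of these 8 genes, at 90, 13.4 and 59.7 CPM in HG3 and 123, 142 and 85.7 CPM in MEC2 (log2 difference 1.10, adjusted p = 0.171). The value of 13.4 CPM was that of the same library with 20.2% of mitochondrial counts. The HG3 library at 90 CPM lay above the MEC2 library at 85.7 CPM.

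Of ATF4 and its 8 targets, PHGDH was called against HG3 in both other lines and PSAT1 in PCL12, and the other 7 genes did not pass in edgeR's fit of all libraries. The median log2 difference of the 9 genes was -0.02 between MEC2 and HG3 (4 of 9 above 0), 0.85 between PCL12 and HG3 (6 of 9) and 0.16 between PCL12 and MEC2 (6 of 9), against 0 over all tested genes. Between PCL12 and HG3 it was 1.01 without PCL12 replicates 2 and 3 (8 of 9 above 0) and 0.60 without the libraries of high mitochondrial share (7 of 9). ATF4 itself stood at 467, 761 and 472 CPM in unstimulated HG3, at 504, 505 and 334 CPM in MEC2 and at 607, 551 and 342 CPM in PCL12. The ranges overlapped, and the log2 differences from HG3 were -0.34 (adjusted p = 0.485) and -0.18 (adjusted p = 0.774). The direction for PCL12 depended on single libraries, and it was 0.118 without PCL12 replicates 2 and 3. DDIT3 (CHOP), a transcription factor downstream of ATF4, stood at 26.4, 21.8 and 12.6 CPM in HG3, at 20.5, 22.5 and 9.57 CPM in MEC2 and at 23.5, 20.8 and 12.2 CPM in PCL12. In each line the third library was the lowest, and the log2 differences between lines lay between -0.21 and 0.10. DDIT3 overlaps MARS1 on the other strand at chr12:57516588-57521737, and the sources used here do not state whether counting used the strand.

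The called genes of this role were the serine synthesis enzymes. PHGDH stood at 0.615, 3.61 and 0.263 CPM in unstimulated HG3, at 44.3, 45.8 and 12.6 CPM in MEC2 and at 18.7, 39.6 and 14.0 CPM in PCL12. No HG3 library reached the lowest library of the other lines, and the highest HG3 library, replicate 2, was the one with 20.2% of mitochondrial counts. PHGDH was 24.5-fold higher in MEC2 (log2 difference 4.61, SE 0.912, adjusted p = 0.00408) and 17.2-fold higher in PCL12 (log2 difference 4.11, SE 0.894, adjusted p = 0.00832). Without the libraries of high mitochondrial share the log2 differences were 6.25 and 5.74 (adjusted p = 0.000803 and 0.00126). PSAT1, the enzyme that takes the product of PHGDH further, was highest in PCL12, at 131, 178 and 104 CPM against 76.8, 39.5 and 81.7 CPM in HG3 and 77.5, 70.5 and 47.2 CPM in MEC2. All PCL12 libraries lay above all others, with a difference of 2.09-fold from HG3 (adjusted p = 0.0358) and of 2.12-fold from MEC2 (adjusted p = 0.0915). When the libraries of high mitochondrial share were left out, the difference of PSAT1 from HG3 was 0.80 on the log2 scale (adjusted p = 0.147) and that from MEC2 passed (adjusted p = 0.0428). The HG3 difference also missed the threshold without PCL12 replicate 1 or replicate 2 (adjusted p = 0.0601 and 0.176), and in the fit of only the libraries compared. SESN2, which senses amino acids upstream of mTORC1, stood at 76.6, 91.4 and 28.2 CPM in PCL12 against 27.1, 30.7 and 17.2 CPM in MEC2 . The PCL12 library of replicate 3 lay within the MEC2 range, and the difference of 2.62-fold did not pass (edgeR's adjusted p = 0.148). TRIB3, a pseudokinase gene induced by ATF4, stood at 92.6, 80.2 and 40.5 CPM in PCL12, at 41.8, 24.4 and 51.9 CPM in HG3 and at 49, 49.7 and 33.5 CPM in MEC2, with a nominal P under 0.05 against both lines (adjusted p = 0.101 and 0.414). PHGDH lies at chr1:119648411-119744218 and PSAT1 at chr9:78297125-78330093, both on the plus strand with no overlapping gene in the annotation.

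**Figure D2:**
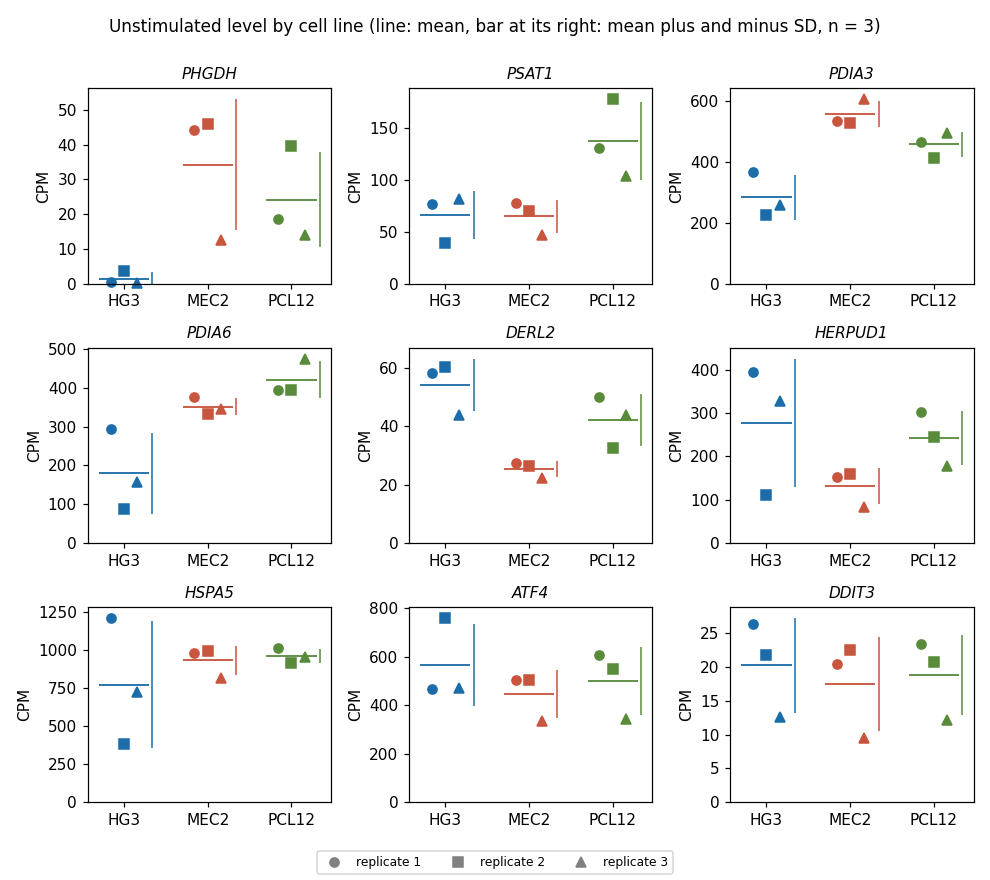
CPM of 9 genes in the unstimulated libraries of HG3, MEC2 and PCL12, with 1 point per replicate, a horizontal line at the mean and a vertical bar for the mean plus and minus the SD (n = 3, cut at 0 where it would fall below). PHGDH is near 0 in HG3, PSAT1 is highest in PCL12, DERL2 is lowest in MEC2, and HSPA5, ATF4 and DDIT3 overlap between the lines.

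The calls between PCL12 and HG3 depended on PCL12 replicates 2 and 3. With PCL12 replicate 1 alone on that side, whose spread was then assumed to be that of the other groups, none of the 34 genes passed the adjusted threshold, and the log2 differences were 1.15 for PDIA6 (adjusted p = 0.233), 1.01 for PSAT1 (0.249) and 3.75 for PHGDH (0.0783). The direction and size of these 3 differences were close to those with all libraries, while the calls were lost. Groups that did not overlap were found for 5 of 34 genes higher and 1 lower in MEC2 than in HG3 (11.6% and 10.6% of all genes), for 7 higher and none lower in PCL12 than in HG3 (11.8% and 9.36%), and for 12 higher and 1 lower in PCL12 than in MEC2 (9.75% and 7.59%, and 13.6% and 13.8% of the genes at 10 CPM or more). Of these 12, 7 were ER chaperones and folding enzymes (DNAJB9, SDF2L1, PDIA4, PDIA6, MANF, CRELD2 and HYOU1), 3 were degradation factors (HERPUD1, SEL1L and DERL2), and the others were ATF6 and PSAT1. The gene that was lower was PDIA3.

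Other genes of both pathways were tested in the same fits. Of 34 further ER stress genes, 2 were higher in MEC2 than in HG3 and none was lower (4.81% and 4.97% of all genes), and of 36 further integrated stress genes 2 were higher and 2 lower. Those higher in MEC2 were ERO1B and PDIA5, which form disulfide bonds in the ER (log2 differences 2.27 and 1.16, adjusted p = 3.57e-05 and 0.00154), the eIF2α kinase EIF2AK2 (1.07, adjusted p = 0.0345) and the amino acid transporter SLC7A5 (1.03, adjusted p = 0.0479). Those lower were VLDLR (-2.69, adjusted p = 0.0133) and the translation inhibitor EIF4EBP1 (-1.28, adjusted p = 0.0123). The calls of EIF2AK2, SLC7A5 and EIF4EBP1 were lost without HG3 replicate 2 (adjusted p = 0.144, 0.192 and 0.129) and that of VLDLR without HG3 replicate 3 (0.0574). Single MEC2 libraries also ended these 4 calls, with the highest adjusted p values over all libraries left out at 0.186 for EIF2AK2, 0.192 for SLC7A5, 0.129 for EIF4EBP1 and 0.0731 for VLDLR, whereas ERO1B and PDIA5 passed with any library left out. In PCL12 against HG3, 6 of the ER stress genes and 4 of the integrated stress genes were higher and none was lower (4.87% and 4.57% of all genes). The smallest P values there were those of the secreted glycoprotein STC2 (log2 difference 2.76, adjusted p = 1.91e-06), PDIA5 (1.82, adjusted p = 7.17e-06), SLC7A5 (1.61, adjusted p = 0.0017), ERO1B (1.45, adjusted p = 0.00431) and EDEM3 (1.22, adjusted p = 0.0194). STC2, PDIA5 and SLC7A5 passed without PCL12 replicates 2 and 3 as well (3.01, 1.93 and 1.94), whereas ERO1B, which was higher in MEC2, had a log2 difference of 0.05 without these libraries, and EDEM3 one of 0.66 (adjusted p = 0.639). EDEM3 also missed the threshold without HG3 unstimulated replicate 2 (0.87, adjusted p = 0.0593) and without PCL12 unstimulated replicate 3 (0.88, adjusted p = 0.147). Between PCL12 and MEC2 none of the ER stress genes passed. STC2 (13.3-fold, log2 difference 3.73, adjusted p = 1.87e-07) and XPOT, which exports tRNA from the nucleus (0.96, adjusted p = 0.0485), were the 2 integrated stress genes higher in PCL12, and XPOT missed the threshold without any 1 of 5 of the 6 libraries (adjusted p of 0.101 to 0.305) (1.53% of all genes were higher and 0.524% lower).

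After CpG, none of the 34 genes passed an adjusted p of 0.05 in HG3, MEC2, PCL12 or the mean of the lines, and none had a nominal P under 0.05 in any of these comparisons. With edgeR, all genes together gave 1, 1, 0 and 3 calls at the adjusted threshold (0.00314%, 0.00314%, 0% and 0.00941%) and 1189, 783, 665 and 1287 at a nominal P under 0.05 (3.73%, 2.46%, 2.09% and 4.04%, and 0.387%, 1.93%, 0.43% and 1.98% of the genes at 10 CPM or more), and DESeq2 and limma-voom gave 0 of the 34 in each too. Likewise, none of the 34 further ER stress genes and 36 further integrated stress genes had a nominal P under 0.05. The 95% confidence interval of the log2 fold change (Log2FC) lay within -1 and 1, a doubling or a halving of the level, for 26 of the 34 genes in HG3, 23 in MEC2, 24 in PCL12 and 32 in the mean of the lines, where the exceptions were CHAC1 and PHGDH. The bounds lay at a median distance of 0.666 from the estimate in HG3 and of 0.384 in the mean of the lines, and changes smaller than these could not be told from 0 for a typical gene in this fit. With the replicate pair as a block, the median standard error was 0.211 in HG3 and 0.121 in the mean of the lines, against 0.324 and 0.187 without it.

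HSPA5 had a Log2FC of 0.01 in the mean of the lines (95% confidence interval -0.362 to 0.386), with 0.28 in HG3, -0.23 in MEC2 and -0.02 in PCL12. After CpG it stood at 1340, 762 and 718 CPM in HG3, at 989, 541 and 859 CPM in MEC2 and at 913, 934 and 989 CPM in PCL12. The unstimulated libraries stood at 1210, 385 and 722 CPM in HG3, and replicate 1 was the highest both with and without CpG. In replicate 2 of HG3 and of MEC2, 1 library of the pair had the high mitochondrial share. ATF4 had a Log2FC of -0.12 (-0.441 to 0.205) and DDIT3 of -0.19 (-0.642 to 0.262). DDIT3 was lower after CpG in the 3 PCL12 pairs, with log2 ratios of -0.33, -0.40 and -0.28, and in 2 of 3 HG3 pairs and 1 of 3 MEC2 pairs.

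In HG3 the fitted Log2FC was above 0 for all 12 ER chaperones and folding enzymes (0.05 to 0.28), and in MEC2 it was below 0 for 9 of the 12, while PCL12 had 6 on either side. These directions moved with the libraries of high mitochondrial share. When the 2 libraries were left out, 2 of the 12 were above 0 in HG3 and 10 of the 12 in MEC2. The median Log2FC of all 34 genes was 0.11 in HG3, -0.06 in MEC2, -0.03 in PCL12 and -0.01 when the lines were averaged, against 0, 0, 0.02 and 0.03 over all tested genes, and without the 2 libraries it was -0.09 in HG3. It ranged up to 0.39 in HG3 when 1 library was left out (unstimulated replicate 1), and it was -0.13 in PCL12 without replicates 2 and 3. No difference of the CpG effect between lines passed for any of the 34 genes in the fit without the block, at the adjusted threshold (0%, 0.00314% and 0% of all genes) or at a nominal P under 0.05 (4.1%, 4.16% and 3.23% of all genes did for MEC2 against HG3, PCL12 against HG3 and PCL12 against MEC2). Without HG3 unstimulated replicate 1, 4 genes had such a nominal P for MEC2 against HG3 (HSPA5, PDIA4, PDIA6 and EIF2AK3). For PCL12 against HG3 there were then 2 (PDIA4 and EIF2AK3), and none passed the adjusted threshold.

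The description of the series pairs a stimulated with an unstimulated sample in each replicate. The lowest and highest log2 ratios of a pair were -2.34 (PHGDH) and 1.68 (EDEM1) in HG3, both in pair 2, and the lowest in PCL12 was -1.42 (ASNS, pair 1). The level rose in all 3 pairs for 2 HG3 genes, 3 MEC2 genes and 1 PCL12 gene (8.21%, 7.82% and 17.6% of all tested genes), and it fell in all 3 for 0, 3 and 5 genes (10.6%, 24.7% and 9.19%). Of the genes at 10 CPM or more, 7.89%, 11.4% and 7.47% rose and 9.82%, 14.4% and 12.2% fell in all 3 pairs. The genes named in this comparison of pairs, apart from HSPA5, were chosen after their values were seen. The sensor EIF2AK3 was lower after CpG in all pairs of MEC2 (log2 ratios of -0.17, -0.39 and -0.25) and of PCL12 (-0.32, -0.21 and -0.52) but not of HG3 (-0.23, 0.87 and 0.30), and the sensor ERN1 in all pairs of PCL12 (-0.43, -0.35 and -0.25). HERPUD1 was higher in all pairs of HG3 (0.11, 0.82 and 0.06) and MEC2 (0.41, 0.12 and 0.36). PPP1R15A (GADD34), which directs the phosphatase of eIF2α, was higher in all pairs of MEC2 (0.38, 0.12 and 0.13) and PCL12 (0.02, 0.09 and 0.37). With the pair as a block in the fit, 2 of the 34 genes had a nominal P under 0.05 in HG3 (EDEM1 at a Log2FC of 0.47 and PHGDH at -0.88; 3.59% of all genes), 1 in MEC2 (TRIB3, which encodes a pseudokinase, at -0.44; 3.41%), none in PCL12 (1.69%) and 2 in the mean of the lines (HERPUD1 at 0.25 and PHGDH at -0.34; 4.54%), and none passed the adjusted threshold. Of the genes at 10 CPM or more, to which 33 of the 34 belong, 5.99%, 7.55%, 3.03% and 9.33% had such a P. The HG3 values of EDEM1 and PHGDH rested on pair 2, with log2 ratios of 1.68 and -2.34 against -0.10 and -0.09 in pair 1 and -0.10 and 0.55 in pair 3. TRIB3 in MEC2 had ratios of -0.17, -1.03 and -0.12. With the block, differences between lines had a nominal P under 0.05 for 3 genes in MEC2 against HG3 (HSPA5, EIF2AK3 and SEC24D; 3.53%) and for 2 in PCL12 against HG3 (EIF2AK3 and PHGDH; 2.39%) and for none in PCL12 against MEC2 (1.36%), none of them at the adjusted threshold (6.04%, 2.7% and 1.55% of the genes at 10 CPM or more). The values of HSPA5 and SEC24D rested on pair 2, with log2 ratios of 0.99 and 1.41 in HG3 and -0.88 and -0.78 in MEC2, against -0.23 to 0.15 in the other pairs of these lines.

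**Figure D3:**
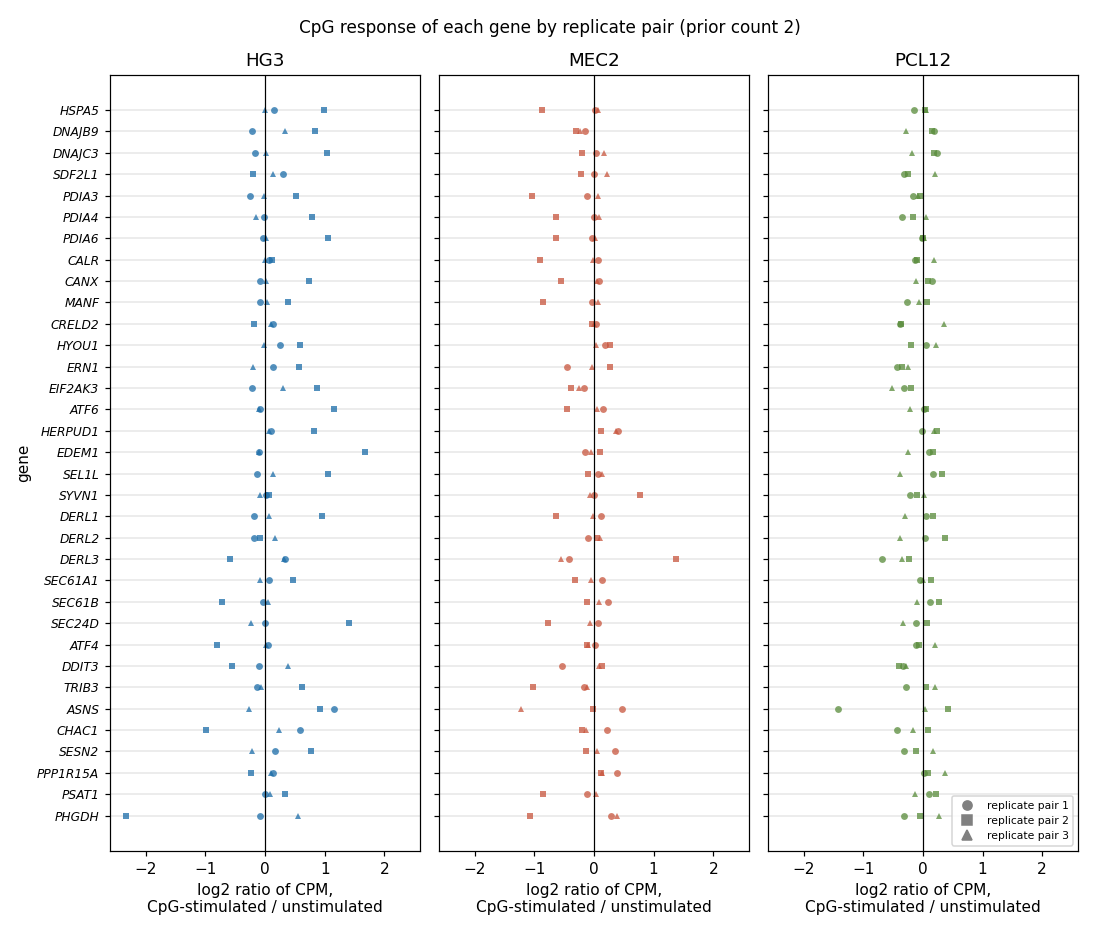
Log2 ratio of CPM after CpG to CPM without it (prior count 2) for each of the 34 genes in rows and each replicate pair as a point, in HG3, MEC2 and PCL12. Most points lie close to 0, and the points farthest from it in HG3 and MEC2 are mostly those of pair 2, which holds the libraries with 20.2% and 19.7% of mitochondrial counts.

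The replicates of a line differed in level. The median over the 34 genes of the range between the 3 pairs of a line, each pair taken as the mean of its 2 libraries, was 1.1 in HG3, 0.645 in MEC2 and 0.455 in PCL12 on the log2 scale. Replicates carry no order, and the labels give no date or batch for them, so what set the pairs apart was not tested. In MEC2 and PCL12, the replicate 3 libraries were low for ATF4 and its targets. The B cell markers were also lowest there, summing to 2660 and 2630 CPM in MEC2 replicate 3 against 3110 to 3670 CPM and to 2210 and 2340 CPM in PCL12 replicate 3 against 2470 to 2910 CPM, and 3 and 2 of the 6 markers lay below the other 4 libraries in both, as did 3 in HG3. Their part in the levels of these genes was not tested. The mean centred log2 CPM of these 9 genes was -0.676 without CpG and -0.777 with it in MEC2 replicate 3, against 0.464 and 0.561 in replicate 1 and 0.557 and 0.209 in replicate 2. In PCL12 it was -0.215 and -0.142 in replicate 3, against 0.731 and 0.388 in replicate 1 and 0.936 and 0.963 in replicate 2. In HG3 the 6 values lay between -0.828 and -0.295, and without PHGDH, which is low in all HG3 libraries, between -0.513 and 0.119. Without PHGDH the replicate 3 libraries still stood lowest in MEC2 (-0.851 and -1.01) and in PCL12 (-0.35 and -0.302).

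Both replicate 3 libraries lay below the other 4 libraries of the line for 7 of the 9 genes in MEC2, where 23.4% of the genes at 10 CPM or more did, for 7 of 9 in PCL12 (13.6%) and for 1 of 9 in HG3 (14.9%). In both MEC2 and PCL12 these included ATF4, DDIT3, CHAC1, SESN2 and PPP1R15A. The unstimulated replicate 3 libraries of these 2 lines also deviated together from their group means. The correlation of these deviations was 0.483 over the genes at 10 CPM or more, against -0.223 to 0.123 for the other pairs of lines and replicates. Over all tested genes it was 0.202, against -0.114 to 0.121. CpG-stimulated libraries were not correlated between lines, and the part of this in the pattern was not tested. CHAC1, which degrades glutathione, showed the widest gap. It stood at 13.9, 14.4 and 1.77 CPM in unstimulated MEC2 and at 16.1, 12.5 and 1.61 CPM after CpG. In PCL12 it stood at 22.5, 28.1 and 6.2 CPM without CpG and at 16.6, 29.9 and 5.53 CPM with it. The difference between replicates was seen in both members of the pair in each line. ASNS, the asparagine synthetase whose promoter element is shown above, was at 3.09, 4.37 and 1.45 CPM without CpG and at 4.32, 4.33 and 0.586 CPM with it in MEC2, but in PCL12 its lowest library was CpG-stimulated replicate 1 (0.959 CPM). The 45 selected MEC2 genes stood at 29.0% and 31.3% of the MEC2 level in the PCL12 replicate 3 libraries. In those of replicate 2 they stood at 31.1%. The part of this in the levels of ATF4 and its targets was not tested. The degradation factors were low in MEC2 replicate 3 as well (6 of 7 genes) and in PCL12 replicate 3 for 2 of 7.

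**Figure D4:**
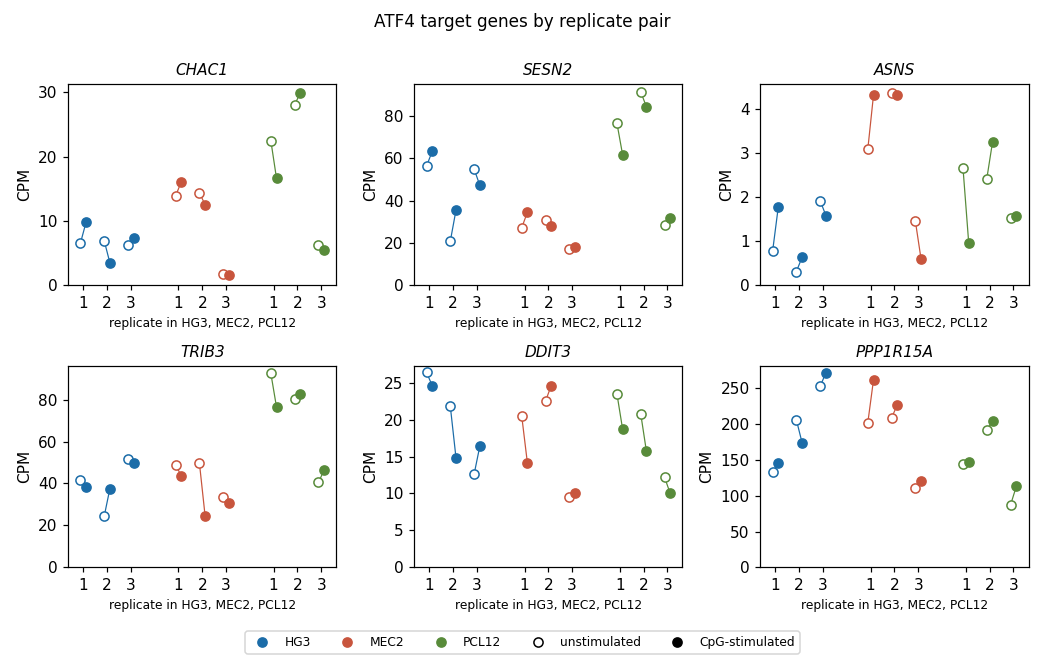
CPM of 6 genes downstream of ATF4 in each replicate of HG3, MEC2 and PCL12, with the unstimulated library as an open and the CpG-stimulated library as a filled circle, joined by a line. In MEC2 and PCL12 both circles of replicate 3 are low for CHAC1, SESN2, DDIT3 and PPP1R15A.

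The ER chaperones and folding enzymes varied between replicates mainly in HG3. Both replicate 1 libraries lay above the other 4 for 11 of these 12 genes in HG3, where 13.7% of the genes at 10 CPM or more did, for 4 of 12 in MEC2 (8.97%) and for none in PCL12 (12.7%). In HG3 the 7 plasma cell genes, none of them a member, summed to 3450 and 3150 CPM in the replicate 1 libraries against 1700 to 2050 CPM in the other 4. Of the 7, PRDM1, JCHAIN, MZB1 and XBP1 lay above the other 4 libraries in both, but SDC1, IRF4 and TNFRSF17 did not. Such plasma cell genes numbered 1 in MEC2 and 4 in PCL12. Their part in the levels of the chaperones was not tested. The mean centred log2 CPM of the 12 genes was 0.274 without CpG and 0.278 with it in HG3 replicate 1, against -0.966 and -0.413 in replicate 2 and -0.573 and -0.535 in replicate 3. PDIA4 gave one of the wider gaps, at 283, 79.6 and 102 CPM without CpG and 281, 137 and 91.6 CPM with it. In MEC2 the group lay between 0.0215 and 0.146 but for CpG-stimulated replicate 2 (-0.478), the library of high mitochondrial share, and in PCL12 between 0.185 and 0.461. The replicate 3 libraries of MEC2 and PCL12, which were the lowest of their own line for ATF4 and its targets, were not low for the chaperones (0.104 and 0.146 in MEC2, 0.433 and 0.461 in PCL12).

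**Figure D5:**
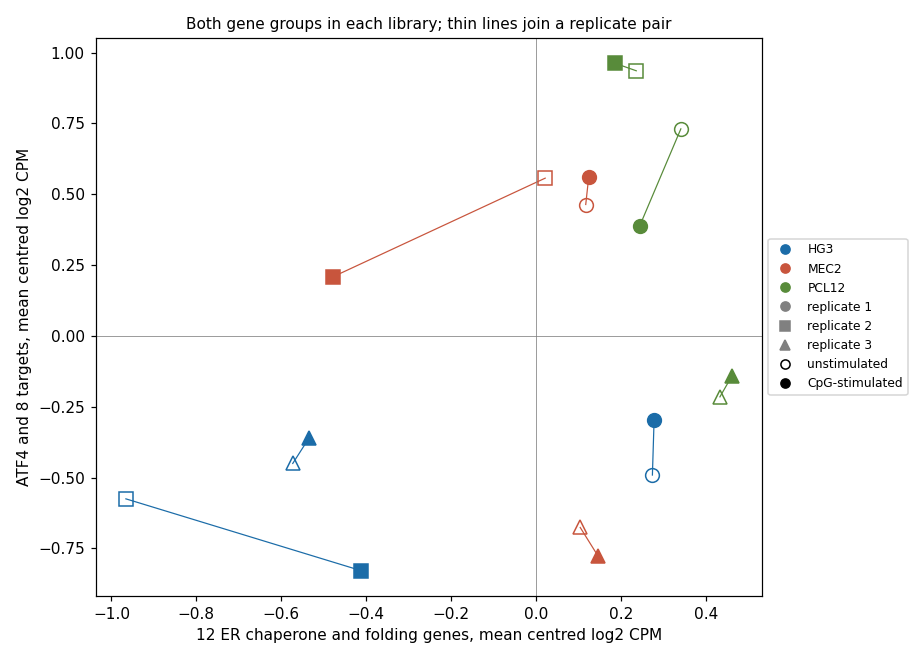
Mean centred log2 CPM (prior count 2) of the 12 ER chaperones and folding enzymes on the x axis and of ATF4 with 8 targets on the y axis, 1 point per library, open without and filled with CpG, with a line joining each replicate pair. The 2 libraries of a pair lie farthest apart in replicate 2 of HG3 and of MEC2, the MEC2 and PCL12 replicate 3 pairs are the lowest of their own line on the y axis but not on the x axis, and HG3 replicate 1 stands apart from the other HG3 pairs on the x axis.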

How the data were processed

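RNA from 3 CpG-stimulated and 3 unstimulated samples of each of 3 CLL cell lines was sequenced, and the authors deposited raw counts per gene symbol for the 18 libraries, without normalization. The submitters' processing notes name FastQC, MultiQC, Trimmomatic, STAR, featureCounts and hg38. Versions, the gene annotation, the strand setting of the counting and the treatment of duplicate reads are not given in the sources used here. For the kits the sources differ: the labels name a Promega RNA kit and a Lexogen stranded QuantSeq library kit, which reads near the 3′ end of transcripts, and the paper a Qiagen RNA kit and a stranded reverse protocol. Levels were therefore not compared between genes. Nothing states that the replicates came from separate cultures, so P values measure the spread between these samples, which may be technical. Intervals cover no error from PCR copies.

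The members, their roles and the lists of further pathway genes were chosen with earlier results of these data known. The software was Python 3.11.15 and, under R 4.3.3, the packages DESeq2 1.42.0, edgeR 4.0.16 and limma 3.58.1. The filter was a sum of 10 counts over the 18 libraries, and the genes past it were fitted with edgeR's robust quasi-likelihood model with TMM factors, 1 mean for each of the 6 groups and 12 residual degrees of freedom, and P values were adjusted by Benjamini-Hochberg over all tested genes. Log2 CPM used a prior count of 2. The steps were tested on simulated counts, drawn independently around a mean per gene with set changes in some genes. These counts held no effect of replicate pair, high mitochondrial share or MEC2 genes in PCL12, so the test does not cover such effects. A gene was named with its values where it passed an adjusted p of 0.05 between unstimulated lines, where its nominal P was under 0.05 after CpG in the fit without the block (no gene), or where it was the exception in its role. HSPA5, ATF4 and DDIT3 were always named, and up to 5 further pathway genes a direction and comparison with an adjusted p under 0.05. The other genes given with values were chosen after their values were seen. Alternatives were DESeq2, limma-voom, RLE factors, library totals without mitochondrial genes, filterByExpr, no filter, a fit of the compared libraries only, a replicate block, and leaving out single libraries, PCL12 replicates 2 and 3, or the libraries of high mitochondrial share.

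The description of the series says that each replicate held a stimulated and an unstimulated sample. After removal of the group means, libraries of one number correlated within a line over the 9306 genes whose mean reached 10 CPM (for replicates 1, 2 and 3, HG3 gave 0.431, 0.459 and 0.713, MEC2 gave 0.3, 0.129 and 0.757, and PCL12 gave 0.738, 0.652 and 0.598). CpG pairs were therefore taken as paired in the log2 ratios and in the fit with the replicate block. The main fit and the confidence intervals did not use the pair. In MEC2, libraries of replicates 1 and 2 correlated better across numbers (0.542 for CpG 1 with unstimulated 2, and 0.485 for CpG 2 with unstimulated 1), and over all tested genes the correlation within MEC2 replicate 2 was -0.0785, so the pairing of these 4 libraries rests on the description. Positions are those of GENCODE 44 on GRCh38, and sequences are from RefSeq on GRCh38.p14.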

Additional observations from a re-analysis of the deposited data

How the results depend on the processing

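The count of genes past an adjusted p of 0.05 between MEC2 and HG3 was 3, and it was 6 with DESeq2, 5 with library totals without mitochondrial genes, 7 without a count filter, 6 without the libraries of high mitochondrial share, and 2 to 8 when 1 library was left out (8 without HG3 unstimulated replicate 1). With only the libraries compared it was 2 (DERL2 and PHGDH), and the call of PDIA3 was lost. Between PCL12 and HG3 it was 3, and 5 with DESeq2 or limma-voom, 10 without a count filter, 1 with only the libraries compared, 0 without PCL12 replicates 2 and 3, and 2 to 7 with 1 library left out (7 without HG3 unstimulated replicate 1, 2 without HG3 unstimulated replicate 2). Between PCL12 and MEC2 it was 0, and 3 with DESeq2 or without a count filter, 1 with only the libraries compared or without the libraries of high mitochondrial share, and 0 to 1 with 1 library left out (1 without PCL12 unstimulated replicate 3). The replicate block gave 4, 5 and 0 for the 3 comparisons, with PDIA6 added in MEC2 and PDIA4 and CRELD2 in PCL12. Between lines, unstimulated libraries of one number correlated at -0.223 to 0.123, except for 0.483 in replicate 3 of PCL12 and MEC2. This block therefore rests on numbers that mostly did not pair samples. After CpG, the count at a nominal P under 0.05 moved from 0 to 2 in HG3, 1 in MEC2 and 2 in the mean of the lines with the replicate block, to 1 in HG3 and 1 in the mean of the lines without a count filter, and in HG3 to between 0 and 4 with 1 library left out (4 without HG3 unstimulated replicate 1). A fit of only the libraries compared was not run for the mean of the lines.

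Directions turned for genes that did not pass a test. Without the libraries of high mitochondrial share, the log2 difference was -0.0568 for HSPA5 in MEC2 and -0.0106 in PCL12 against HG3 and 0.0911 for ATF4 in PCL12 against HG3. Without PCL12 replicates 2 and 3 it was 0.118 for ATF4 and 0.233 for DDIT3 in PCL12 against HG3. The mean CpG effect on HSPA5 was -0.00265 with limma-voom, -0.0188 without PCL12 replicates 2 and 3 and -0.0245 without the libraries of high mitochondrial share, and it ran from -0.104 to 0.175 with 1 library left out. Over the other libraries left out, HSPA5 ran from -0.0409 to 0.771 in MEC2 against HG3 and from -0.0391 to 0.0962 in PCL12 against MEC2, ATF4 from -0.346 to 0.12 in PCL12 against HG3 and from -0.0125 to 0.382 in PCL12 against MEC2, and DDIT3 from -0.457 to 0.0896, -0.355 to 0.141 and -0.194 to 0.347 in MEC2 against HG3, PCL12 against HG3 and PCL12 against MEC2. The cause was not tested. With 3 libraries a group, the median standard error of a log2 difference between lines was 0.325 to 0.326, which limits what could be called.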
